A study of Mus musculus with 3 samples.

Results

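The genes described here are 10 transcription regulators of endothelial and blood-forming cells, chosen by name, and all 10 were found among the 24091 genes of the table. They are the ETS factor genes Erg, Fli1, Ets1, Elk3 and Etv6, the SCL complex genes Tal1 and Lmo2, the MADS-box gene Mef2c, and the SOXF genes Sox7 and Sox17. The RNA came from cells of the large intestine of C57BL/6 mice that were sorted as lymphatic endothelium by CD31 (Pecam1), podoplanin (Pdpn) and LYVE1. The study has 1 group of 3 libraries, called replicates 1, 2 and 3, and the labels name no genotype other than the strain and no treatment. The labels give neither the age of the mice nor whether each library is a separate animal, so the spread between libraries may be technical. Levels are the deposited transcript abundances (TPM), a unit that by definition is length-corrected and scaled to library size. They are given as mean ± SD over the 3 libraries (n = 3). How TPM was computed is not given in the sources used here. Differences between genes therefore rest on a length correction that could not be checked.

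ETS factors bind DNA through a shared winged-helix domain that reads a GGAA core, and ERG and FLI1 are close relatives that keep endothelial genes such as Cdh5 and Tie1 active. TAL1 (also called SCL) is a basic helix-loop-helix factor that joins E-proteins, LMO2, LDB1 and a GATA factor in 1 complex, which is needed to form blood and also works in endothelium. MEF2C acts with class IIa histone deacetylases and controls Klf2 and Klf4 in endothelium. SOX7, SOX17 and SOX18 form the SOXF group: SOX18 helps to start Prox1 expression in lymphatic precursors, and SOX17 is known for arterial endothelium. None of these genes belongs to endothelium alone, since Fli1, Ets1, Tal1, Lmo2 and Mef2c are also used by blood cells, and Etv6 and Ets1 are widely expressed.

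Because members of a family share a DNA-binding domain, their coding sequences were compared first, as short reads from near-identical stretches could be assigned to the wrong relative. The windows below are the 60 coding bases in which Erg and Fli1, and then Sox7 and Sox17, are most alike without gaps, from GENCODE M21 on GRCm38 (the assembly of mm10). Each is part of 1 coding exon, and capitals mark the bases that differ within the pair. The Erg window lies at chr16:95361141-95361200 (minus strand) in exon 11, and that of Fli1 at chr9:32424120-32424179 (minus strand) in exon 9. The Sox7 window lies at chr14:63947799-63947858 (plus strand) in exon 2, and that of Sox17 at chr1:4492565-4492624 (minus strand) in exon 5.
Erg: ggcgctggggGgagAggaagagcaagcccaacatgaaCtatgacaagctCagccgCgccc
Fli1: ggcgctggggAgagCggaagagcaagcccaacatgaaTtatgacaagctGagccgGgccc
Sox7: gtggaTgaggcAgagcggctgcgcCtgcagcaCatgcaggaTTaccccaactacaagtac
Sox17: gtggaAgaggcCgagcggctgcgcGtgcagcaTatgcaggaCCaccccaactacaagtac

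In these windows 55 of 60 bases (91.7%) were identical between Erg and Fli1, and 54 of 60 (90.0%) between Sox7 and Sox17. The longest run of identical coding bases was 22 for both pairs, and 29 for Sox17 and Sox18. Fli1 and Ets1, which are neighbours on chromosome 9, shared a run of 21 bases. The read length and the treatment of reads with several matches are not given in the sources used here. The coding sequences used were the longest complete ones, of 1461 bases for Erg, 1359 for Fli1, 1143 for Sox7 and 1260 for Sox17.

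Every member was present in every library, and the levels spanned a wide range. All 10 members had at least 1 TPM in all 3 libraries, as did 53.4% of all 24091 genes. Of the members, 8 had a mean TPM of 5 or more, against 43.6% of all genes. The median of the member means was 9.11, against 2.48 over all genes and 17.0 over the 12862 genes with at least 1 TPM in each library. Lmo2 and Elk3 stood well above the other 8 members, and the SOXF pair Sox7 and Sox17 had the lowest means, although Sox17 (5.07) was level with Tal1 (5.04) in replicate 3.

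**Figure D1:**
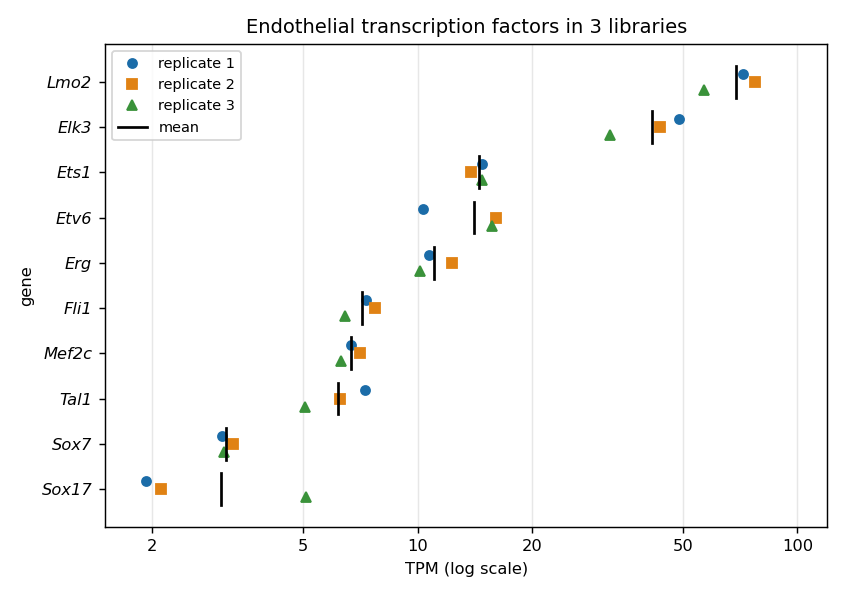
TPM (horizontal log axis) of the 10 transcription factor genes (rows, by mean) in replicates 1, 2 and 3 (coloured symbols), with a black bar at the mean. Lmo2 lies between 56.9 and 77.5 in the 3 libraries, and for Sox17 replicate 3 (5.07) lies apart from replicates 1 (1.93) and 2 (2.11).

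Of the ETS members, Erg (Entrez 13876, chromosome 16, 95359169 to 95586600) is the factor most often used as a nuclear marker of endothelium. Its TPM was 10.7, 12.3 and 10.2 in replicates 1, 2 and 3, a mean of 11.1 ± 1.13. Fli1 (Entrez 14247, chromosome 9, 32422204 to 32543432), its nearest relative and also a factor of leukocytes and megakaryocytes, had 7.32, 7.70 and 6.42, a mean of 7.15 ± 0.654. As deposited, both genes were lowest in replicate 3 and highest in replicate 2 (replicate 1 after median of ratios scaling), and their libraries differed by 1.21-fold and 1.20-fold at most. Erg exceeded Fli1 in each library, by 1.46-fold, 1.60-fold and 1.58-fold in TPM. On the log2(TPM + 1) scale the difference was 0.57 ± 0.06, above 0 in 3 of 3 libraries.

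That difference was 1 of 10 single-gene differences tested by permuting signs over the libraries (exact sign-flip permutation test, two-sided). Its smallest possible p over 3 libraries is 0.25, so none of the differences can pass 0.05 by it, and each is given with its SD instead. Of the 10 differences, 8 had 1 sign in all 3 libraries and p = 0.25 (exact permutation test, 0.312 after Benjamini-Hochberg adjustment over the 10). The other 2, Fli1 against Spi1 and Sox17 against Sox7, changed sign between libraries.

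Ets1 (Entrez 23871, chromosome 9, 32636241 to 32757820), the founding member of the family, is used by endothelium and by lymphocytes. As deposited it stood at 14.7, 13.9 and 14.8, a mean of 14.5 ± 0.533, with 1.07-fold between its highest and lowest library. With the scalings described below its range was 1.24-fold (median of ratios) and 1.38-fold (pan-endothelial). Elk3 (Entrez 13713, chromosome 10, 93247415 to 93311159) encodes a ternary complex factor that works with SRF and acts mainly as a repressor. With 48.9, 43.4 and 32.2 (mean 41.5 ± 8.52) it was the most abundant of the 5 ETS members, and it was lowest in replicate 3. Its locus overlaps Cdk17 on the opposite strand (11.0, 13.1 and 11.0 TPM), and whether the counting used strand is not given in the sources used here. Etv6 (Entrez 14011, chromosome 6, 134035700 to 134270158), a repressor with a pointed domain that blood stem cells need, had 10.3, 16.0 and 15.7, a mean of 14.0 ± 3.22. Here replicate 1 was the low library, unlike for Erg, Fli1 and Elk3.

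The 5 ETS members were then set within their family, since every library also held epithelial and leukocyte RNA. Of 27 ETS genes listed, 26 were in the table, and 21 of these had at least 1 TPM in all 3 (53.4% of all genes did). The 3 most abundant by mean were the epithelial factor genes Elf3 (284, 296 and 312), Ehf (94.2, 125 and 137) and Spdef (94.8, 98.3 and 125), and SPDEF is a factor of goblet cells. Together with Elf5, which stayed between 0.256 and 0.318, these genes made up 56.9%, 54.8% and 58.0% of the summed TPM of the family. The 5 members described here made up 11.1%, 9.84% and 8.01%. Erg lay below Elf3 by 26.5-fold, 24.0-fold and 30.7-fold in TPM, a difference of -4.63 ± 0.17 in log2(TPM + 1).

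Of the other family members, Ets2 came next by mean, at 100.3 ± 11.6, and in replicate 2 (108) it lay above Spdef. Elk4 averaged 37.2 ± 3.13, Elf1 36.2 ± 7.80 and Erf 23.7 ± 2.81. Elf2 (19.3 ± 3.01), Etv5 (19.3 ± 3.52), Etv3 (16.7 ± 4.29), Etv4 (16.0 ± 3.48), Gabpa (14.5 ± 1.99) and Elf4 (14.4 ± 4.41) lay close to Ets1 and Etv6. Etv2, which starts the endothelial and blood programme in the embryo, was listed at 0 in all 3 libraries.

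**Figure D2:**
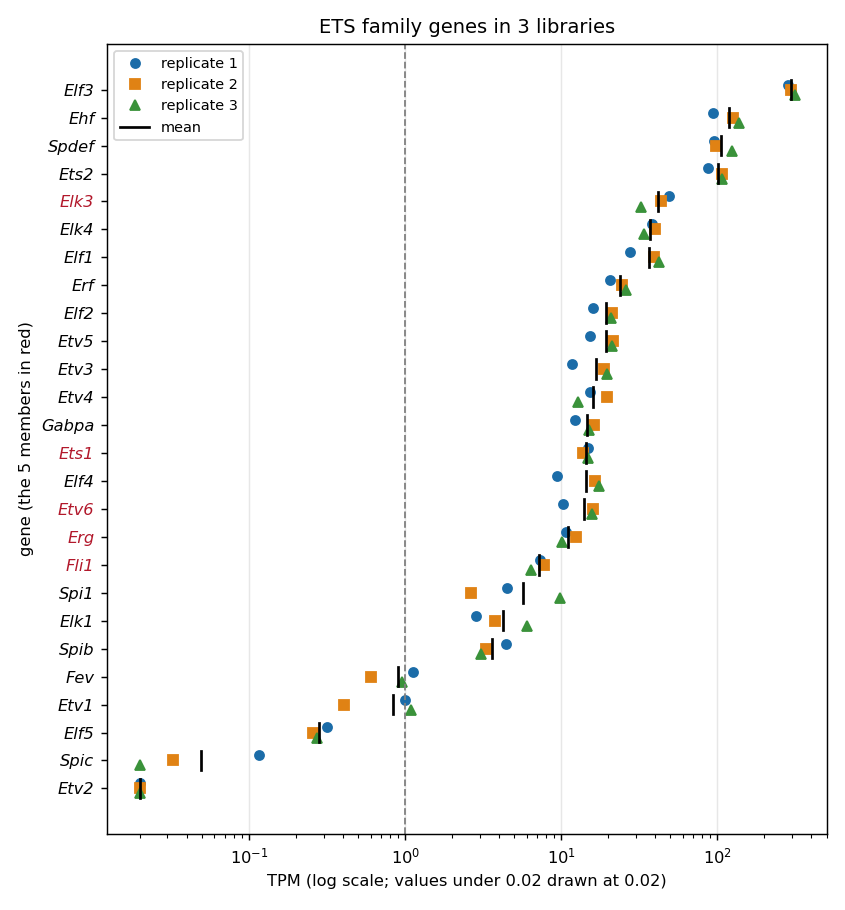
TPM (horizontal log axis, values under 0.02 drawn at 0.02) of 26 ETS family genes (rows, by mean) in 3 libraries (symbols), with a black bar at the mean and a dashed line at a TPM of 1. The 5 members, in red, lie between Elk3 (mean 41.5) and Fli1 (7.15), below the epithelial genes Elf3, Ehf and Spdef (means 297, 119 and 106).

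Leukocyte ETS genes were low, and they did not move together between libraries. Spi1, which encodes the myeloid factor PU.1, had 4.50, 2.65 and 9.79, so it lay below Fli1 in replicates 1 and 2 and above it in replicate 3. Spib, at 4.43, 3.32 and 3.07, was instead lowest in replicate 3, and Spic stayed at or below 0.115. The Fli1 minus Spi1 difference was 0.60, 1.25 and -0.54 in log2(TPM + 1), smaller in the mean (0.44) than its SD of 0.91 (exact sign-flip permutation test, p = 0.5, 0.556 adjusted). Of 12 leukocyte markers, 10 had at least 1 TPM in each library (53.4% of all genes did), and the list sum was 94.1, 71.4 and 199. All 10 were highest in replicate 3, against 40.5% of the genes with at least 1 TPM in each library. Fli1 was lowest and Ets1 highest in replicate 3 as deposited, with 1.07-fold between the libraries of Ets1. After the pan-endothelial scaling described below both were highest there, but that scaling raises replicate 3 against the other libraries for every gene. The part of leukocyte RNA in the levels of Fli1 and Ets1 was not tested.

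The SCL complex genes came out at very unequal levels. Lmo2 (Entrez 16909, chromosome 2, 103957903 to 103981878), which encodes the LIM-only protein that bridges the DNA-binding partners, was the most abundant of all 10 members at 71.9, 77.5 and 56.9, a mean of 68.7 ± 10.6. This placed it at percentile 84.1 of the genes with at least 1 TPM in each library. Tal1 (Entrez 21349, chromosome 4, 115056426 to 115071755) had 7.26, 6.26 and 5.04, a mean of 6.18 ± 1.11, at percentile 22.9. Lmo2 exceeded Tal1 by 9.91-fold, 12.4-fold and 11.3-fold in TPM, and by 3.28 ± 0.15 in log2(TPM + 1). Both were lowest in replicate 3.

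Lyl1, the closest relative of Tal1 and able to stand in for it in blood cells, was more abundant than Tal1 in every library, at 27.2, 22.3 and 16.3. The ratio of Lyl1 to Tal1 in TPM was 3.75, 3.57 and 3.23, and Tal1 minus Lyl1 was -1.66 ± 0.13 in log2(TPM + 1). Lmo4, a broadly expressed relative of Lmo2, had 41.4, 55.6 and 53.8. Lmo2 lay above it by 1.73-fold, 1.39-fold and 1.06-fold, a difference of 0.44 ± 0.35 in log2(TPM + 1) that nearly vanished in replicate 3.

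Of the 22 genes of the complex and its relatives, 16 had at least 1 TPM in all 3, against 53.4% of all genes. Among the partners, the adaptor genes Ldb1 (70.7 ± 6.05), Ssbp3 (47.3 ± 8.33) and Ldb2 (14.3 ± 2.78) and the E-protein genes Tcf3 (31.4 ± 2.78), Tcf12 (22.4 ± 5.05) and Tcf4 (19.3 ± 2.09) were all above Tal1, while the adaptor gene Ssbp2 (5.14, 4.93 and 3.23) lay below it in each library. The corepressor gene Cbfa2t3 stood at 9.20 ± 0.997. Of the GATA genes, Gata6, which colon epithelium also expresses, averaged 27.7 ± 5.99, and Gata2, the GATA factor of endothelium and lymphatic valves, had 6.35, 4.83 and 6.06, close to Tal1. Gata1, the erythroid GATA factor, stayed between 0.0446 and 0.122.

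Tal1 and Lmo2 are also genes of erythroid cells, megakaryocytes and mast cells, so markers of these cells were read beside them. Only 2 of 12 erythroid and megakaryocyte markers (Gp1bb and Pf4) had at least 1 TPM in each library, against 53.4% of all genes. The list median was 0.401, 0.377 and 0.408. The list sum of 33.4, 24.4 and 60.4 was highest in replicate 3, and Pf4 (26.3, 15.1 and 52.1) made up most of it. Of the 7 mast cell markers only Kit and Cma1 had at least 1 TPM in each library, against the same 53.4%, and the other 5 stayed below 1 TPM in all 3. The mast cell list sum was 24.9, 24.3 and 28.1, and Kit (17.1, 18.0 and 22.3) made up most of it. Fcer1a was listed at 0 in all 3 libraries and Cpa3 at 0 in 2 of them. The part of such cells in the levels of Tal1 and Lmo2 was not tested.

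Mef2c (Entrez 17260, chromosome 13, 83504017 to 83667079) was among the steadiest members as deposited, at 6.68, 7.04 and 6.28, a mean of 6.67 ± 0.380. Its range of 1.12-fold became 1.23-fold with median of ratios scaling and 1.29-fold with pan-endothelial scaling. The other MEF2 genes were higher: Mef2a had 11.0, 12.7 and 12.7, and Mef2d averaged 25.9 ± 8.52. Mef2c minus Mef2a was -0.78 ± 0.14 in log2(TPM + 1), below 0 in 3 of 3 libraries, and Mef2c made up 19.8%, 13.9% and 12.4% of the summed TPM of the 4 MEF2 genes. Mef2b was listed at 0 in replicate 1 and stayed at or below 0.503 in the others. Of the class IIa deacetylase genes, Hdac5 averaged 28.0 ± 1.29, Hdac7, the endothelial one, 15.1 ± 0.727 and Hdac4 6.72 ± 1.96. Klf2, a target of MEF2 factors in endothelium, had 79.1, 73.1 and 89.5.

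Sox7 (Entrez 20680, chromosome 14, 63943706 to 63950732) and Sox17 (Entrez 20671, chromosome 1, 4490928 to 4497426) were the 2 lowest members. Sox7 was nearly flat as deposited, at 3.06, 3.26 and 3.08, a mean of 3.13 ± 0.111. Its range of 1.07-fold became 1.14-fold with median of ratios scaling and 1.39-fold with pan-endothelial scaling. Sox17 had 1.93, 2.11 and 5.07, a mean of 3.04 ± 1.76, so its mean rests on replicate 3 and is 2.02 without it. Sox17 was the only member whose libraries differed by 2-fold or more (2.62-fold), as 8.42% of the genes with at least 1 TPM in each library did. As deposited, only Elk3 and Etv6 joined it at 1.5-fold or more, so 3 of 10 members did, against 28.4% of those genes. After median of ratios scaling Tal1 (1.66-fold) reached that mark and Etv6 (1.33-fold) did not. After pan-endothelial scaling Etv6 (2.10-fold) did and Elk3 (1.12-fold) did not. Sox17 lay below Sox7 in replicates 1 and 2 and above it in replicate 3, with differences of -0.47, -0.45 and 0.57 in log2(TPM + 1). Their order is therefore not settled by these libraries (mean -0.12 ± 0.60, exact sign-flip permutation test, p = 1).

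The third SOXF gene, Sox18, is one of the lymphatic fate genes and was far more abundant, at 87.0, 93.7 and 63.1. It exceeded Sox17 by 45.0-fold, 44.3-fold and 12.5-fold in TPM. The SOXF genes together made up 59.0%, 50.9% and 41.4% of the summed TPM of the SOX family, of which Sox7 and Sox17 gave 3.20%, 2.76% and 4.73%. Of 19 SOX genes, 7 had at least 1 TPM in all 3 (53.4% of all genes did). Sox9, a gene of crypt epithelium, averaged 37.9 ± 6.10, Sox4 21.5 ± 8.65 and Sox13 20.3 ± 4.26, all above Sox7 and Sox17 in each library. Sox17 minus Sox9 was -3.34 ± 0.56 in log2(TPM + 1). Sox3, Sox14 and Sox15 were listed at 0 in all 3 libraries.

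**Figure D3:**
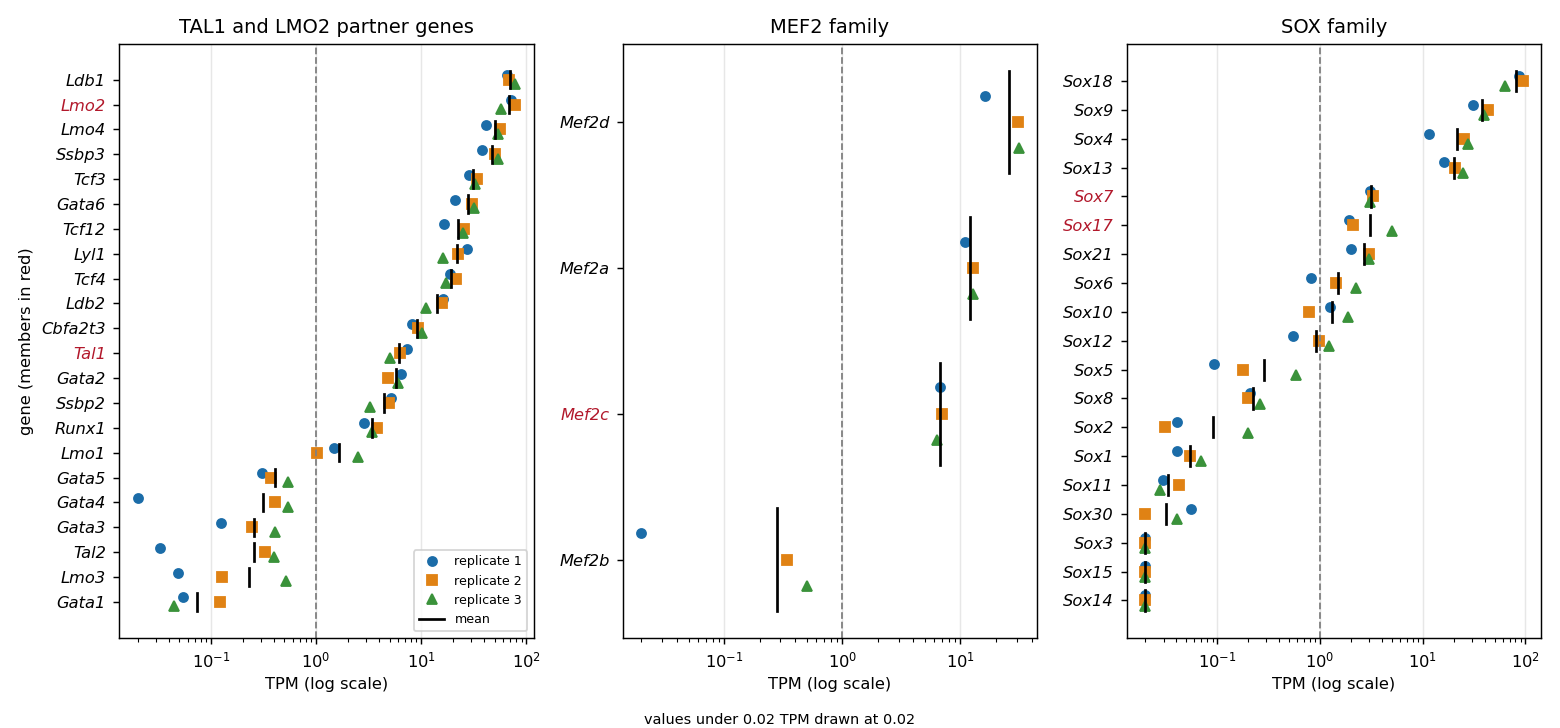
TPM (horizontal log axes, values under 0.02 drawn at 0.02) of 22 genes of the TAL1 and LMO2 complex and its relatives, 4 MEF2 genes and 19 SOX genes in 3 libraries (symbols), with black bars at the means, dashed lines at a TPM of 1 and members in red. Lmo2 (mean 68.7) stands beside Ldb1 (70.7) at the top of its panel, while Sox7 (3.13) and Sox17 (3.04) lie below Sox18 (81.3).

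By mean TPM the order of the members was Lmo2, Elk3, Ets1, Etv6, Erg, Fli1, Mef2c, Tal1, Sox7 and Sox17. Neighbours were called separated where their difference in log2(TPM + 1) had 1 sign in 3 of 3 libraries and a mean above its SD, and 5 of the 9 neighbouring pairs were. Lmo2 exceeded Elk3 by 0.72 ± 0.15, Elk3 exceeded Ets1 by 1.44 ± 0.32 and Tal1 exceeded Sox7 by 0.79 ± 0.23. Erg and Fli1, given above, were separated too. Fli1 and Mef2c passed with a difference of only 0.09 ± 0.05, that is 1.10-fold, 1.09-fold and 1.02-fold in TPM. Ets1 and Etv6 (0.06 ± 0.36), Etv6 and Erg (0.30 ± 0.32), Mef2c and Tal1 (0.10 ± 0.19), and Sox7 and Sox17 did not differ beyond their spread.

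The marker sums differed between the libraries, and whether they account for the levels of the members was not tested. Lymphatic markers, led by Lyve1, Mmrn1 and Reln with Prox1 the lowest, had a summed TPM of 1605, 1677 and 920.5. Of these 10 genes, 9 were lowest in replicate 3, against 22.9% of the genes with at least 1 TPM in each library. The 14 pan-endothelial markers, led by Cldn5, Ecscr and Egfl7, summed to 1744, 1499 and 1099, with 13 lowest in replicate 3, against the same 22.9%. Mesenchymal markers, led by Tagln, Dcn and Acta2, summed to 329, 242 and 720.4. All 12 were highest in replicate 3, against 40.5% of the genes with at least 1 TPM in each library. Epithelial markers, led by Krt8, Lgals4 and Krt19, summed to 13874, 14812 and 15754, so this sum exceeded the lymphatic one in every library despite the sort. In such bulk RNA, fewer cells of a type and less RNA per cell cannot be told apart, and no level assigns a gene to a cell type.

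Of the 10 members, 6 were lowest in replicate 3 (Lmo2, Elk3, Erg, Fli1, Mef2c and Tal1), against 22.9% of the genes with at least 1 TPM in each library. The 3 that were lowest in replicate 1 (Etv6, Sox7 and Sox17) compare with 63.2% of those genes. The median gene of that set deviated by -0.14, 0.08 and 0.07 (log2) from the mean of the libraries in replicates 1, 2 and 3. After scaling by median of ratios, which removes this shift, 7 of 10 members were lowest in replicate 3, against 33.9% of those genes. The 7 are the same 6 and Sox7, whose lowest library was replicate 1 as deposited. For the 6, the highest library exceeded replicate 3 by 1.12-fold (Mef2c) to 1.52-fold (Elk3) as deposited. For the 7 after median of ratios scaling this was 1.14-fold (Sox7) to 1.75-fold (Elk3), with Tal1 at 1.66-fold. Over all 10 members, whichever library was lowest, the deposited range had a median of 1.29-fold. That is close to the 1.31-fold of all genes with at least 1 TPM in each library.

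Levels were also divided by the geometric mean of the 14 pan-endothelial markers in each library (79.8, 69.9 and 58.0 TPM) and put back on the scale of their mean. On this scale Tal1 was almost constant, at 6.30, 6.19 and 6.02, and so was Elk3, at 42.4, 43.0 and 38.4. Only these 2 members remained lowest in replicate 3, against 3.3% of genes. Lmo2 took values of 62.4, 76.7 and 67.9. Ets1 (12.8, 13.7 and 17.7), Etv6 (8.96, 15.9 and 18.8) and Sox17 (1.68, 2.09 and 6.05) were highest in replicate 3, as were Fli1, Mef2c and Sox7 by smaller margins. Division by these geometric means raises replicate 3 against replicates 1 and 2 for every gene. The share of all genes that were highest there on this scale was not counted. After median of ratios scaling, Ets1, Fli1, Mef2c and Sox7 were highest in replicate 1. The range was smaller than in TPM for 3 of 10 members (Lmo2, Elk3 and Tal1), against 11.5% of genes, and it was 2-fold or more for Etv6 and Sox17, against 23.7% of genes.

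**Figure D4:**
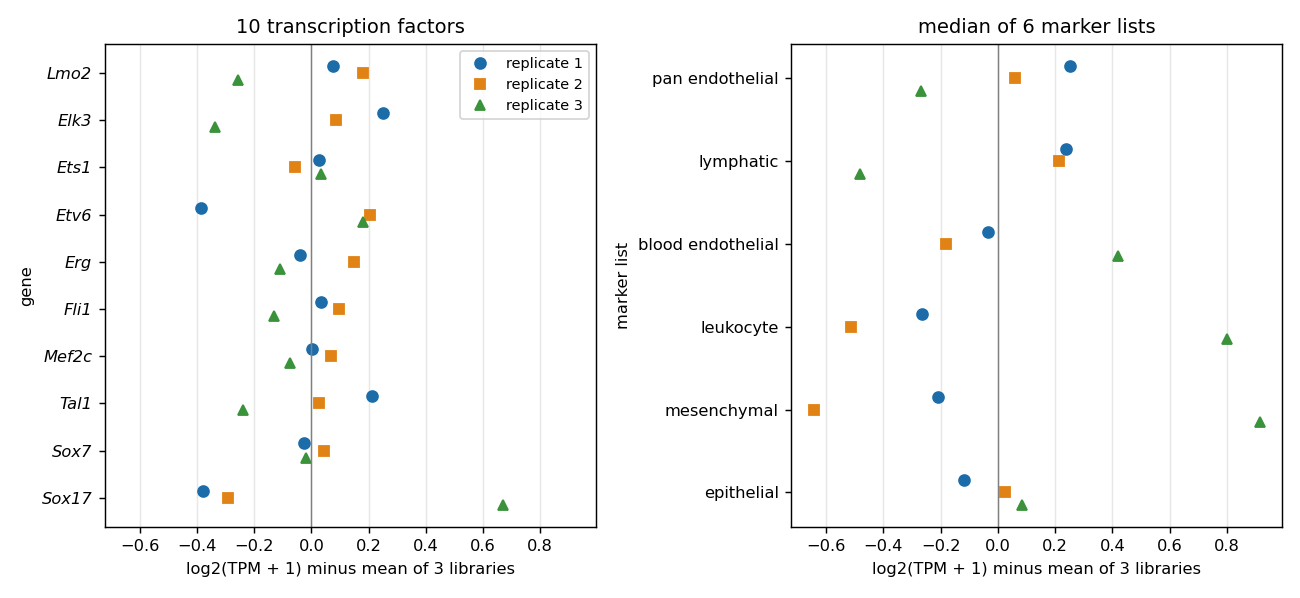
Deviation of log2(TPM + 1) from its mean over the 3 libraries (horizontal axis) for the 10 genes (left, rows by mean TPM) and for the median gene of 6 marker lists (right), with symbols for replicates 1, 2 and 3. Replicate 3 is lowest for Elk3 (-0.34) and for the pan-endothelial (-0.27) and lymphatic (-0.48) medians, and highest for Sox17 (0.67) and for the leukocyte (0.80) and mesenchymal (0.92) medians.

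For each member the genes with the most similar deviations over the 3 libraries were looked up among 131 listed genes of mean TPM 1 or more, by the root mean square difference in log2(TPM + 1) centred on the gene's mean. With 3 libraries this is a description only. The scale understates the differences of low genes, and no other pseudocount was used for likeness. The listed genes include several lists of endothelial genes, and the share of endothelial genes among the 131 was not counted. Elk3 lay nearest to the endothelial genes Robo4 (0.03), Tie1 (0.04) and Egfl7 (0.05), and Tal1 to Ramp2 (0.03), Tie1 (0.04) and Robo4 (0.05). All of these neighbours are on the pan-endothelial list used for the scaling above. Their closeness is therefore not separate from the nearly constant scaled levels of Elk3 and Tal1. Fli1 was nearest to Elk4, Cdh5 and Dll4, Erg to Tcf4, Tek and the erythroid gene Klf1 (mean 1.06 TPM), and Mef2c to Rgcc, Dll4 and Tek. Lmo2 was nearest to Maf and Nr2f2, which are on the lymphatic marker list, and to Sox18, which is not (0.06 each). Its deviations were 0.08, 0.18 and -0.26 in replicates 1, 2 and 3. The lymphatic median had 0.24, 0.21 and -0.48, and the pan-endothelial median 0.25, 0.06 and -0.27.

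Among the other 4 members, Etv6 lay nearest to Tcf12, Efnb2 and Gata6, Ets1 to Hdac7, Hdac5 and the epithelial gene Krt19, and Sox7 to the epithelial gene Epcam, Notch1 and Mef2c. Sox17 lay nearest to Car4 (0.02), a carbonic anhydrase gene of capillary endothelium and of colonocytes, and then to the leukocyte genes Cd53 (0.10) and Itgam (0.11). Car4 had 143, 148 and 289. In TPM its range was 2.02-fold, against 2.62-fold for Sox17, so the closeness to Car4 depends on the pseudocount of 1. Of the 10 blood endothelial markers, with sums of 796, 735 and 920.2, 5 were highest and 4 lowest in replicate 3. The shares over all genes with at least 1 TPM in each library were 40.5% highest and 22.9% lowest there. Their part in the level of Sox17 was not tested.

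Genes known to be controlled by these factors in endothelium were nearly all present. Of 22 such genes, 21 had at least 1 TPM in all 3 (53.4% of all genes did), with a list median of 24.8 ± 1.59. The most abundant were Cldn5 (399, 324 and 205), a tight junction gene, Egfl7 (245, 202 and 157) and Klf2. Aplnr, the apelin receptor gene, was the lowest at 1.04, 0.787 and 5.17, and was the gene that missed the threshold. Replicate 3 was the lowest library for 12 of the 21, against 22.9% of the genes with at least 1 TPM in each library, and the highest for 7, against 40.5%. Most of those 12, among them Cldn5 and Egfl7, are also on the pan-endothelial list, so this count is not separate from the marker counts above.

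Windows of 250 bases before a transcription start were read for the members that the RefSeq promoter table (GRCm38.p6) holds, which are Erg, Elk3, Etv6, Tal1 and Mef2c, with 10 start sites in all. They were searched on both strands for 2 ETS motifs, AGGAAG and CCGGAA, which share the GGAA core but differ in the base before it, so that no match of one uses the core of the other. The 3 windows that held a match are shown, with the match in capitals, because ETS factors are known to act on one another's genes in endothelium. The Erg window, at the third of 3 listed start sites, is chr16:95459349-95459598 (minus strand), that of Elk3 chr10:93311160-93311409 (minus strand) and that of Mef2c, at the second of 3, chr13:83523406-83523655 (plus strand).
Erg: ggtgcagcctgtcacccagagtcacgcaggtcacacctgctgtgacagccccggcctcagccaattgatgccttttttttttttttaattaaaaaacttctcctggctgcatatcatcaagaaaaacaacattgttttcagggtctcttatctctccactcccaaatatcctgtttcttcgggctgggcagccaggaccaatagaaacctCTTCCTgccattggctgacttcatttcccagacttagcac
Elk3: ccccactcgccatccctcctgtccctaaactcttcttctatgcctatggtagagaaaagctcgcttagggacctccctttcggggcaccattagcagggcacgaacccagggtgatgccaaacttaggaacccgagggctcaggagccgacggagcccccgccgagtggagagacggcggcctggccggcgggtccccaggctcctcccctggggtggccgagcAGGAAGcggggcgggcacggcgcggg
Mef2c: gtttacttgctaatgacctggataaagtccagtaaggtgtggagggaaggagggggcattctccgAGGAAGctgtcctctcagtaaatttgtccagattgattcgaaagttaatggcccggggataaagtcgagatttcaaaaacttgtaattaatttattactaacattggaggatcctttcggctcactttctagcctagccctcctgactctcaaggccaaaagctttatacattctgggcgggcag

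In the Erg window the match reads on the opposite strand and begins 40 bases before the start. In Elk3 it begins 26 bases and in Mef2c 185 bases before the start. AGGAAG thus occurred in 3 of 10 member windows, and in 29.5% of the 32851 windows of all genes. CCGGAA occurred in none of the 10, and in 12% of all windows, and either motif occurred in 38.2% of all windows. The SOX motif ACAAT occurred in 2 of 10 member windows (27.7% of all), the GATA motif AGATAA in 2 (9.99%), the E-box CANNTG in 3 (66.2%) and the palindromic MEF2 motif in none (3.2%). A match of so few letters is a description of the window and not a binding site.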

How the data were processed

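Each library has 1 deposited table with Entrez IDs, symbols and 1 TPM column, and the authors' TPM values summed to 999939, 999907 and 999896. Per the submitters' processing notes, mm10, Cell Ranger 6.0.1 and HTSeq were used. How TPM was computed, the annotation and the strand setting are not given in the sources used here. TPM keeps no depth, so the depth is unknown and no counting interval is given.

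The 10 genes were matched by symbol, and all 10 Entrez IDs matched RefSeq (GRCm38.p6), which gave the coordinates (1-based). Values were compared as log2(TPM + 1), a scale that understates differences of low genes. Single-gene differences were tested two-sided by exact sign-flip permutation over 3 libraries, with Benjamini-Hochberg adjustment over 10. A gene was called present at a TPM of 1 or more in every library. The range of a gene is its highest over its lowest library.

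The genes, lists and tests were chosen with earlier results of these data known. Named were all members, all genes of the 10 differences, genes of the ETS, SCL partner, MEF2, class IIa deacetylase and SOX lists at a mean TPM of 5 or more or listed at 0 in every library, the 3 highest and the lowest of the target and marker lists, and the 3 genes most like each member. Elf5, Spib, Spic, Ssbp2, Gata1, Mef2b, Cdk17, Cpa3, Gp1bb, Pf4, Kit, Cma1 and Fcer1a were named after their values were seen, as was which coding and promoter windows to print.

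Alternatives were a pseudocount of 0.1, TPM thresholds of 0.5 and 5, a 1.5-fold range, TPM rescaled without 94 ribosomal protein genes and Mir6236, median of ratios scaling, pan-endothelial scaling, medians over libraries, and leaving out each replicate. Calculations ran in Python 3.11.15 with pandas 2.3.3 and numpy 2.4.6, and figures were drawn with matplotlib 3.10.9.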

Additional observations from a re-analysis of the deposited data

How the results depend on the processing

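The 8 single-gene differences with 1 sign in all 3 libraries cannot change direction when a library is left out, nor under a rescaling or pseudocount, which keeps the order of both genes, so their direction under these alternatives is no sign of stability. Of the other 2, Sox17 minus Sox7 turned positive without replicate 1 (0.0598, log2) and without replicate 2 (0.0510), and leaving out 1 library at a time gave this difference values from -0.46 to 0.0598. Leaving out 1 library also moved Fli1 minus Spi1 from 0.44 to between 0.0285 (without replicate 2) and 0.92 (without replicate 3), and Lmo2 minus Lmo4 from 0.44 to between 0.27 (without replicate 1) and 0.62 (without replicate 3). The sign-flip test cannot give a p below 0.25 with 3 libraries or 0.5 with 2, so its p-values say nothing of stability. The number of members with a 2-fold range was 1 as deposited, 3 at a 1.5-fold range, 2 with pan-endothelial scaling, and 0 to 1 when 1 library was left out, with 0 without replicate 3. The 7 SOX genes present at a TPM of 1 became 4 at a threshold of 5 and 10 at a threshold of 0.5. Their number was 9 after rescaling without ribosomal protein genes and Mir6236, and 8 without replicate 1 or without replicate 2. Rescaling without ribosomal protein genes and Mir6236 raised the member means by 1.33-fold to 1.34-fold, which was more than their SD for 9 of 10, Sox17 being the exception. No paired analysis was possible because the series has 1 group. The depth is unknown, which limits what can be said of genes below a TPM of 1.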
